A study of Homo sapiens with 2 samples.

Results

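Names of nuclear-encoded oxidative phosphorylation genes were followed in 2 RNA libraries of 95D, a human lung cancer cell line labelled as wild type. After 24 h in complete medium, 1 culture was kept for 48 h in DMEM without glucose and the other for 48 h in DMEM without glutamine, each with dialyzed FBS; they are called the no-glucose and the no-glutamine library. The members were all gene names starting with NDUF, UQCR, ATP5 or COX and a digit, without a hyphen, that carried a number in the deposited tables. There were 55 such names out of 9253 with a value, on 111 of 18663 rows. With 1 library per condition nothing below was tested, and every comparison describes these libraries. The series is titled as an RNA immunoprecipitation of ALKBH5, an RNA demethylase, but the labels do not say whether either library is a pull-down or an input, and binding was not analysed here. The description of the no-glutamine sample names the table column of the other sample, so the groups follow the treatment labels.

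Oxidative phosphorylation makes ATP in the inner membrane of mitochondria. Complex I takes electrons from NADH, complex III passes them to cytochrome c and complex IV hands them to oxygen, while protons are pumped across the membrane. Complex V, the ATP synthase, lets the protons flow back and makes ATP. Most subunits are encoded in the nucleus, and the others by mitochondrial DNA. Cells deprived of glucose depend more on this pathway for ATP, and glutamine is a main fuel of the citrate cycle that feeds it.

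The files name their rows as long non-coding RNA genes, give no transcript identifiers and list a name on several rows. Whether a row holds reads of the messenger RNA of that gene, of a non-coding transcript of the locus or of a processed copy was not tested. RefSeq lists 104 pseudogenes named after members, for 29 of the 55. The values carry no stated unit; they behave as read counts times 1 factor per library and are not divided by length. Values and reads of different genes below are therefore amounts of reads and not levels of expression, and their order can follow transcript length. Recovered reads came to 42827 in the no-glucose and 1442553 in the no-glutamine library. This is a 33.7-fold difference in depth over the listed rows, and it stands beside every comparison between the libraries. The marker lists of the labelled cell type were thinly covered. Of 6 epithelial names 4 carried a value, KRT8 at 200 and 143 in the no-glucose and no-glutamine libraries, and KRT18, KRT19 and KRT7 at 0 in the former and at 75.1, 42.6 and 9.47 in the latter. The mesenchymal names FN1 and VIM stood at 344 and 963 and at 0 and 75.9. NAPSA, the 1 with a value of 3 listed lung names (5 sought), stood at 161 and 18.9. Of 9 immune, endothelial and fibroblast names 5 were listed and 0 had a value. Over all listed names 31.7% had a value, so these few say little of other cell types.

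Most members were seen in the no-glutamine library alone. Of the 55, 54 were above 0 there (98.2%, against 99.5% of all names), and 4 were above 0 in the no-glucose library (7.27%, against 4.25% of all names). The 4 were ATP5MG, NDUFA4, UQCRC2 and COX15, and each of the complexes counted by prefix held 1 of them. All 99 rows of the table at 0 in the no-glutamine library had reads in the other, so a 0 there is listed only beside no-glucose reads.

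**Figure D1:**
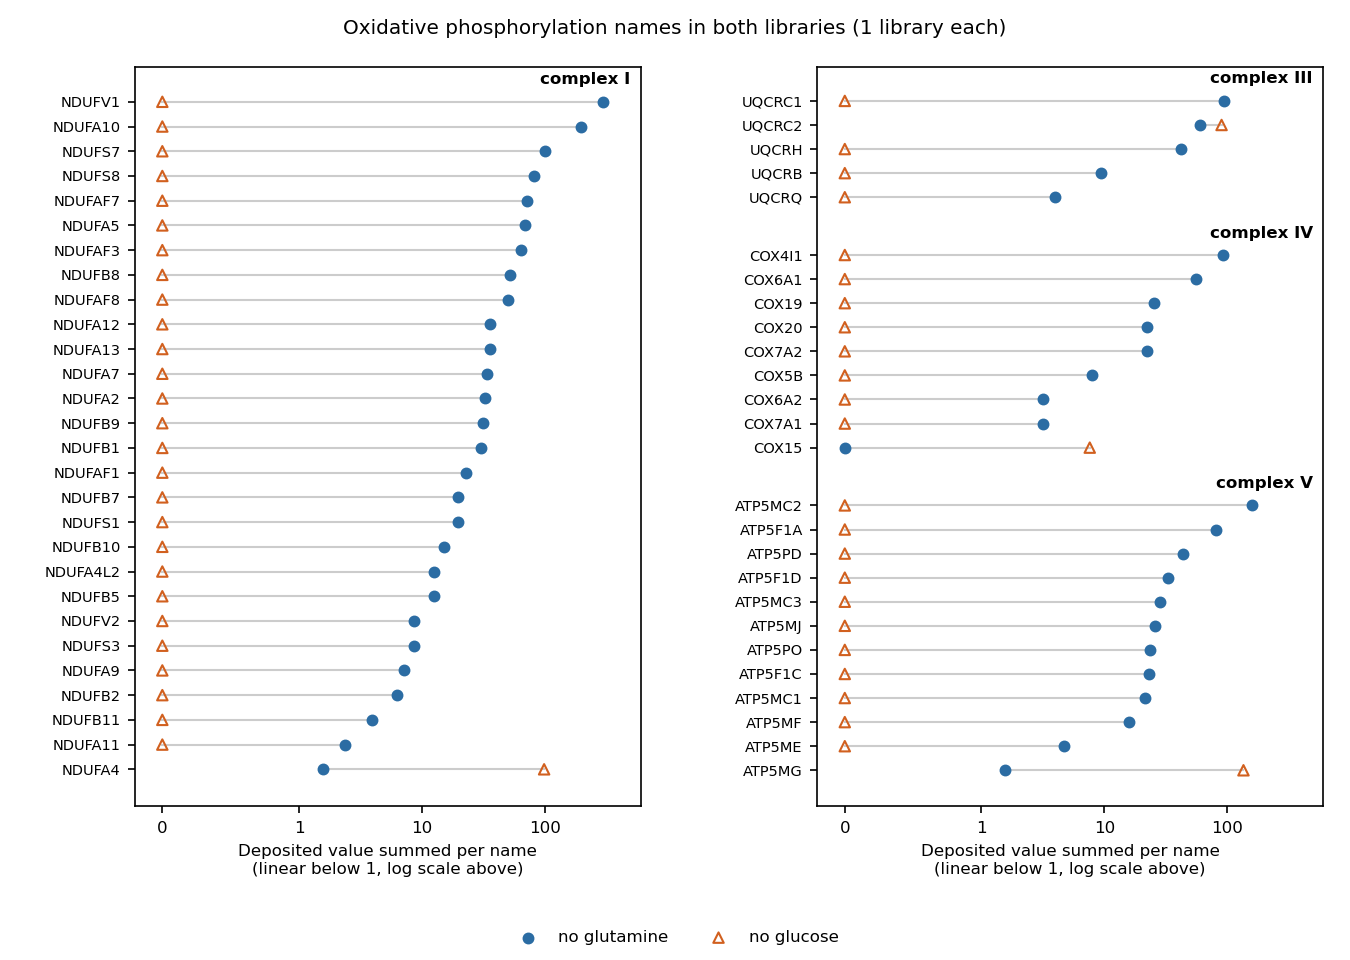
Deposited value, summed over the rows of a name, of 54 of the members in the no-glutamine (filled circles) and no-glucose library (open triangles), with 1 library each; the axis is linear below 1 and logarithmic above. The triangles sit at 0 for 50 of them and above 0 for NDUFA4, UQCRC2, COX15 and ATP5MG.

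ATP5MG encodes a small membrane subunit of the ATP synthase that helps hold the enzyme in dimers. It rested on 1 row, at 135 in the no-glucose library (107 recovered reads) and at 1.56 in the no-glutamine library (2 reads). The value was 85.5-fold higher in the no-glucose library as deposited, with a 95% exact counting interval of 23.1 to 715, and 1802-fold higher as a share of recovered reads (487 to 15072). These intervals, and all intervals on reads below, cover counting error within 1 library only. They may be too narrow, because no molecular identifiers mark copies of 1 molecule. Intervals on shares of rows or genes below treat these as independent, although several rows can share 1 name. RefSeq names 8 pseudogenes after this gene.

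NDUFA4 was named as a subunit of complex I and is now placed with complex IV; RefSeq carries it as COXFA4. Its 1 row with a value, of 4 listed, stood at 98.6 in the no-glucose library (78 reads) and at 1.56 in the no-glutamine library (2 reads). This was 62.3-fold higher in the no-glucose library as deposited (16.7 to 524) and 1314-fold higher as a share of recovered reads (352 to 11039). NDUFA4L2, a relative known as a target of hypoxia-inducible factor, was listed at 0 in the no-glucose library and stood at 12.6 in the other (16 reads). The order of reads of this pair was thus opposite in the libraries, with the no-glutamine ratio of NDUFA4L2 to NDUFA4 reads at 8.0 (1.88 to 71.7).

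UQCRC2 encodes a core protein of complex III. It was the member seen clearly on both sides, at 89.8 in the no-glucose library (71 reads) and 60.0 in the no-glutamine library (76 reads). All no-glucose reads fell on 1 of its 5 rows. That row was also the largest in the no-glutamine library, at 44.3 (56 reads), while the others held 4 to 7 reads there. The size of the difference rests on the scale: in the no-glucose library the value was 1.49-fold higher as deposited (1.06 to 2.09), and 31.5-fold higher as a share of recovered reads (22.4 to 44.1). Its partner UQCRC1, the other core protein, was listed at 0 in the no-glucose library and at 94.1 in the other (119 reads).

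COX15 makes haem A, which complex IV needs for its oxygen-binding site. It stood at 7.61 in the no-glucose library (6 reads, 2.20 to 13.1) and was listed at 0 in the no-glutamine library. It was the 1 member at 0 there.

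Ratios between members within a library do not depend on scaling. In the no-glucose library ATP5MG held 1.51 times the reads of the shared UQCRC2 row (1.11 to 2.06), and in the no-glutamine library 0.0357 times (0.00422 to 0.135). For NDUFA4 the ratio was 1.10 (0.786 to 1.54) and 0.0357 (0.00422 to 0.135). These names were described because they had no-glucose reads, and 1 library per condition gives no spread between samples. Over all names, 235 rows held 71 reads or more in the no-glucose library, of which 47 were at 0 and 11 had 1 to 2 reads in the no-glutamine library. The members' reads were of a usual size for the no-glucose library, where a row above 0 had a median of 70 reads (quartiles 18.2 and 104). ATP5MG lay at percentile 77.2 of those rows, NDUFA4 at 55.9, UQCRC2 at 52.1 and COX15 at 17.5.

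The stretch before the annotated start of these genes is shown because they are the members with reads in the no-glucose library. ATP5MC2, which had the most no-glutamine reads in complex V, is set beside them as a gene with a match to an NRF1 motif. It does not stand for other members with many no-glutamine reads. Each line gives the 250 bases before the start, 5′ to 3′ on the strand of the gene, from RefSeq, GRCh38.p14. Capitals mark motif matches, described further on.
ATP5MG, chr11:118401356-118401605, plus strand: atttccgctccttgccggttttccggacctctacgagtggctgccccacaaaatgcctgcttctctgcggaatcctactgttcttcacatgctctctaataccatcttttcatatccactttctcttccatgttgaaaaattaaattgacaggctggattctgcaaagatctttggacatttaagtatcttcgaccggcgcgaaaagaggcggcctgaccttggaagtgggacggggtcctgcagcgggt
NDUFA4 (COXFA4), chr7:10940154-10940403, minus strand: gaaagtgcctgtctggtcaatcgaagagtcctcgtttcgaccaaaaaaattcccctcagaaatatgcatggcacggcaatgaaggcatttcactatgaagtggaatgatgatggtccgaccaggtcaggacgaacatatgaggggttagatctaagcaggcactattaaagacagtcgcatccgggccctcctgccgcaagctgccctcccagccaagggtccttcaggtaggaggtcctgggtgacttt
UQCRC2, chr16:21953111-21953360, plus strand: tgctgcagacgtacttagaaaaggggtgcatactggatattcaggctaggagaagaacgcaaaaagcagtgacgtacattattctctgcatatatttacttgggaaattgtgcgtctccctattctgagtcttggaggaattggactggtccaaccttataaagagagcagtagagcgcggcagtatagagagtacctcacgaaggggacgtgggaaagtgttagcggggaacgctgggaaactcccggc
COX15, chr10:99732128-99732377, minus strand: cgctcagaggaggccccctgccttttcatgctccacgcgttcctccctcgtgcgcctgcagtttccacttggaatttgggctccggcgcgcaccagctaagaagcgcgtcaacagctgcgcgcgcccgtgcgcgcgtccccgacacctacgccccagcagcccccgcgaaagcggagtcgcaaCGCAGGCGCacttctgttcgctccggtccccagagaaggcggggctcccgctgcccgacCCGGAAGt
ATP5MC2, chr12:53676084-53676333, minus strand: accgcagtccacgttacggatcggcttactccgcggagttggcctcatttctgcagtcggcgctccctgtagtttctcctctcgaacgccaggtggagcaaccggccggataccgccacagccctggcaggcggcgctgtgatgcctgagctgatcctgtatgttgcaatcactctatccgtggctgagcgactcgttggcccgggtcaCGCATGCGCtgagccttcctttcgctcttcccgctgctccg

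At least 2-fold higher values in the no-glutamine library, on the log2(value + 1) scale, were found for 51 of 55 members (92.7%). Over all names it was 97.4%, and the 51 pass through the pseudocount, since each was listed at 0 in the no-glucose library. No row at 0 there had under 2 no-glutamine reads. At 2 reads, a value of 1.56, the log2 ratio is already 1.36, or 1.25 after rescaling. Every name at 0 in the no-glucose library therefore passes, and this count was fixed by which rows carry a value. In the opposite direction 3 members passed, ATP5MG, NDUFA4 and COX15 (5.45%, against 1.42% of all names), at log2 ratios of -5.73, -5.28 and -3.11. UQCRC2 had a log2 ratio of -0.57. After rescaling both libraries to 1000000, 51 and 4 members passed, UQCRC2 being added at -4.95, against 96.0% and 3.75% of all names. The median log2 ratio was 4.63 over the members and 4.32 over all names. It mostly carries the no-glutamine value and the pseudocount.

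The 51 members at 0 in the no-glucose library held 2936 reads in the no-glutamine library. The other 4 held 262 reads in the no-glucose and 80 in the no-glutamine library. Scaled to the no-glucose depth, the 2936 reads come to 87.2 and the 80 reads to 2.38. At that depth 26 members would have at least 1 read, and 1 of these was above 0 in the no-glucose library. What sets this division of the names was not tested. Members held 0.612% of the recovered reads in the no-glucose library (95% Wilson interval 0.542 to 0.690%) and 0.209% in the no-glutamine library (0.202 to 0.217%). The no-glucose share rests on few names: without ATP5MG it was 0.362%.

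In complex I, 29 names had a value, and their reads in the no-glutamine library ran from 2 to 375 with a median of 40. The nuclear-encoded core subunits, which form the arm that carries the electrons, were listed at 0 in the no-glucose library, as were most names. NDUFV1, which binds NADH and flavin, stood at 297 (375 reads, 338 to 415). NDUFS7 and NDUFS8, iron-sulfur subunits on the path to ubiquinone, stood at 101 (128 reads) and 82.2 (104 reads). NDUFS1, the largest iron-sulfur subunit, stood at 19.8, and NDUFV2 and NDUFS3 at 8.68 and 8.66 (11 reads each). Reads of the core subunits were thus widely spread, and, not corrected for length, the ratio of NDUFV1 to NDUFV2 reads was 34.1 (18.8 to 68.9). This pair spans the extremes of the core subunits. NDUFV1 is a sum over 5 rows, the largest with 220 reads, while NDUFV2 rests on 1 row.

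The 16 accessory subunits of complex I with a value ranged from 2.35 to 199 in the no-glutamine library, with a median of 30.8. NDUFA10 had the most reads, at 199 (251 reads), then NDUFA5 at 69.6 and NDUFB8 at 52.1. NDUFA12, NDUFA13 and NDUFA7 lay close together at 35.6, 35.6 and 34.0, and NDUFA2, NDUFB9 and NDUFB1 at 32.4, 31.6 and 30.0. Counting error does not separate these 6, which had 38 to 45 reads each. NDUFB7 stood at 19.8, NDUFB10 at 15.0 and NDUFB5 at 12.6. At the low end were NDUFA9 at 7.10, NDUFB2 at 6.31, NDUFB11 at 3.94 and NDUFA11 at 2.35 (3 reads). None of the 16 was above 0 in the no-glucose library, where 4.25% of all names were. A 0 there is thus the usual state of a name and not a trait of these subunits. The assembly factors NDUFAF7, NDUFAF3, NDUFAF8 and NDUFAF1, which help build complex I and are not part of it, stood at 72.0, 64.0, 49.8 and 22.9, and likewise at 0 in the no-glucose library.

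Complex III had 5 names with a value. Besides UQCRC1 and UQCRC2 these were small subunits. In the no-glutamine library UQCRH stood at 41.9 (53 reads on 3 rows), UQCRB at 9.47 and UQCRQ at 3.94 (5 reads). All 3 were listed at 0 in the no-glucose library, where 4.25% of all names were above 0. Summed over rows and not corrected for length, UQCRC1 held 1.57 times the no-glutamine reads of UQCRC2 (1.16 to 2.12). The largest rows of these names were alike, at 57 and 56 reads.

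Complex IV had 9 names with a value. COX4I1, the common form of a regulatory subunit, stood at 92.5 in the no-glutamine library (117 reads) and COX5B at 7.89. For the subunits with tissue forms, the widely expressed form had more reads than the form of heart and skeletal muscle. COX6A1 stood at 56.1 (71 reads) and COX6A2 at 3.15 (4 reads), and COX7A2 at 22.1 (28 reads) and COX7A1 at 3.15 (4 reads). The ratios of reads were 17.8 (6.64 to 66.9) and 7.0 (2.45 to 27.5). They are not corrected for transcript length. COX19, an assembly factor linked to copper delivery, and the assembly factor COX20 stood at 25.3 and 22.1. All 8 names other than COX15 were listed at 0 in the no-glucose library, where 4.25% of all names were above 0.

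Complex V had 12 names with a value. In its catalytic head and central stalk, ATP5F1A, the alpha subunit, stood at 81.4 (103 reads), ATP5F1D at 33.2 and ATP5F1C at 22.9. The rotor ring of subunit c is made from ATP5MC1, ATP5MC2 and ATP5MC3, which give the same mature protein. Their reads were unequal: ATP5MC2 stood at 157 (199 reads), ATP5MC3 at 28.4 (36 reads) and ATP5MC1 at 21.3 (27 reads). The ratio of ATP5MC2 to ATP5MC3 was 5.53 (3.86 to 8.12), while that of ATP5MC3 to ATP5MC1, 1.33 (0.787 to 2.28), spans 1. The peripheral stalk names ATP5PD and ATP5PO stood at 43.5 and 23.7. Of the small membrane subunits, ATP5MJ stood at 26.0, ATP5MF at 15.8, ATP5ME at 4.71 and ATP5MG at 1.56. ATP5MG thus had the fewest no-glutamine reads of complex V and the most no-glucose reads of any member.

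Between complexes, 1875 of the 3016 member reads of the no-glutamine library fell on complex I (62.2%, Wilson interval 60.4 to 63.9%) and 582 on complex V (19.3%). Complex IV held 294 (9.75%) and complex III 265 (8.79%). The prefixes had 29, 12, 9 and 5 names in that order. Medians of the summed value per name were 31.6 in complex I, 41.9 in complex III, 22.1 in complex IV and 24.9 in complex V. With NDUFA4 and NDUFA4L2 counted under complex IV, as RefSeq now names them, its median was 12.6. With the highest row of a name in place of the sum the medians were 26.1, 15.8, 11.1 and 19.4, so that complex III was no longer the highest. Each of the 4 medians by prefix lies within the range of every other complex, and lengths were not accounted for. In the no-glucose library, counted by prefix, 107 of the 262 reads fell on complex V, 78 on complex I, 71 on complex III and 6 on complex IV. In each case they fell on 1 name. The 78 reads were those of NDUFA4, now placed with complex IV, and every other NDUF name was at 0.

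Members carried a value more often than the rows of the table as a whole. A value mostly meant at least 2 reads in the no-glutamine library. Of 215 rows listed under 63 member names 111 had a value (51.6%, Wilson interval 45.0 to 58.2%), against 20.3% of all 91835 rows. By name it was 55 of 63 (87.3%), against 31.7% of all names and 35 of 47 (74.5%) of the listed names of the other pathway lists. By complex the share was 41.0% in complex I, 73.7% in complex III, 54.2% in complex IV and 81.8% in complex V. The listed rows were divided unevenly among the names of a complex, so a single name can set such a share. NDUFS4, NDUFA3, NDUFB4, COX6C, COX6B2, COX11, COX17 and ATP5PF were listed without a value. A further 38 nuclear protein-coding RefSeq symbols with these prefixes, of 99, were not among the listed names and were not analysed here. ATP5F1B, UQCRFS1, COX5A and COX6B1 are among them.

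**Figure D2:**
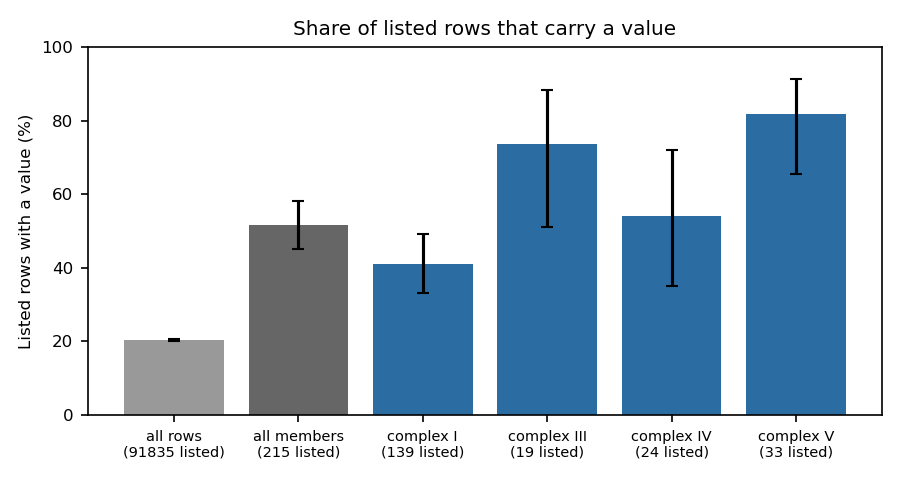
Share of listed rows with a value in percent, for all rows, all member rows and the member rows of each complex; bars start at 0 and lines are 95% Wilson intervals. Members stand at 51.6% against 20.3% of all rows, and complex V at 81.8%.

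The rows of a name shared its reads unevenly. Of the 55 members 26 rested on 1 row and 29 on 2 or more. In these 29 the largest row held a median of 65.0% of the no-glutamine reads, from 35.9% for NDUFS7, which had the most rows (7), to 95.6% for NDUFA13. NDUFV1 had rows of 220, 101, 31, 19 and 4 reads. Names on more rows had more reads: Spearman's rho was 0.71 over the 55 members and 0.66 over all names. Both are descriptions across names, which share a library and are not independent, and a sum over more rows is larger by construction.

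**Figure D3:**
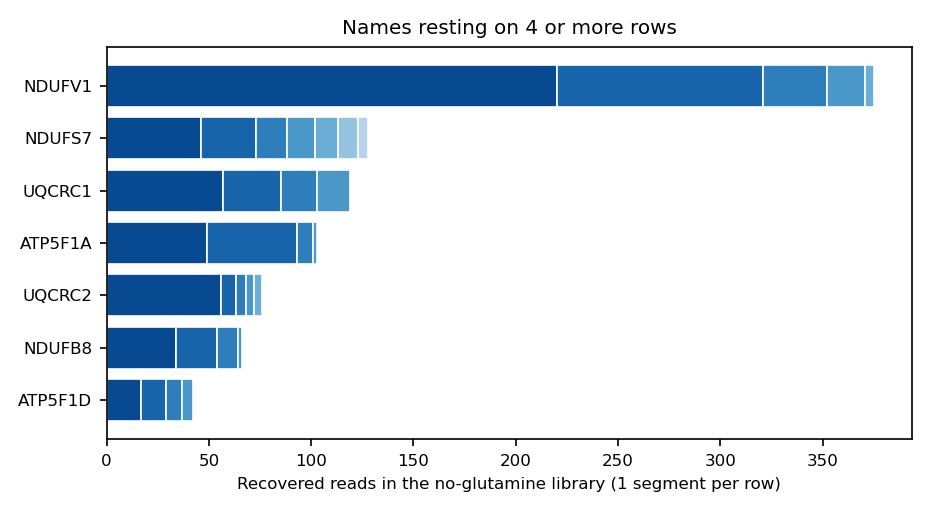
Recovered reads in the no-glutamine library of 7 members on 4 or more rows, with 1 segment per row in order of size; the axis starts at 0. NDUFV1 reaches 375 reads with 220 on 1 row, while the 128 reads of NDUFS7 are spread over 7 rows.

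Promoters of these genes were searched for motifs of 3 factors known to act on respiratory chain genes. The letters were GCGCNTGCG for NRF1, CCGGAAG for the ETS family, to which GABPA belongs, and AAGATGGCG for YY1, on both strands of windows reaching from 250 bases before to 50 after the start. RefSeq windows were found for 47 of the 55 members, 10 of them with more than 1. The NRF1 letters were present in 13 members (27.7%, Wilson interval 16.9 to 41.8%) and in 12.5% of all protein-coding genes with a window. The ETS letters were present in 16 (34.0%, 22.2 to 48.3%) against 16.5%. The YY1 letters were present in 6 (12.8%, 5.98 to 25.2%) against 3.21%. The median GC content was 61.0% in member windows and 62.3% in all protein-coding windows. By window in place of gene the member shares were 20.6%, 27.0% and 11.1%, against 9.53%, 12.8% and 2.41% of all protein-coding windows. In all, 28 of the 47 held at least 1 of the motifs and 7 held 2 or more, COX15 among them.

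**Figure D4:**
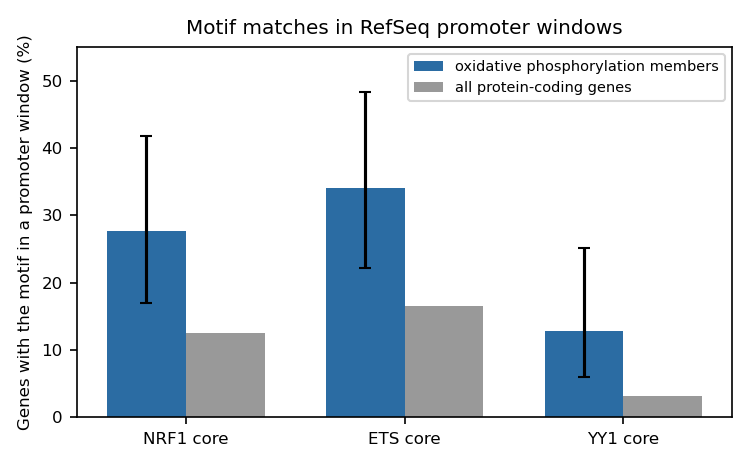
Share of genes, in percent, with a match to each motif in at least 1 RefSeq promoter window, for the 47 members with a window and for all protein-coding genes; bars start at 0 and lines are 95% Wilson intervals. The member bars stand at 27.7%, 34.0% and 12.8%, against 12.5%, 16.5% and 3.21%.

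Among the sequences printed above, COX15 has the NRF1 letters on the opposite strand 67 bases before the start and the ETS letters 8 bases before it. ATP5MC2 has the NRF1 letters on the opposite strand 41 bases before the start in the window shown, 1 of its 3. ATP5MG has the ETS letters on the opposite strand at base 2 after the start, outside the printed stretch. NDUFA4 and UQCRC2 have none of the motifs in their windows. NDUFV1 and NDUFA10, not printed, had the most no-glutamine reads of all members (375 and 251) and have none of the motifs either. The members with no-glucose reads therefore included windows with and without matches. A match is a description of letters and says nothing of binding.

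Of other genes of the pathway, 33 of the 35 with a value were listed at 0 in the no-glucose library. This is near the share over all names, of which 4.25% were above 0 there. The exceptions among the 35 were LRPPRC and VDAC3. LRPPRC, which stabilises mitochondrial messenger RNAs, stood at 154 there and at 749 in the no-glutamine library. VDAC3, a channel of the outer membrane, stood at 1.29 (1 read) and 8.68. As deposited all 35 passed the 2-fold threshold toward the no-glutamine library, against 97.4% of all names. The 33 at 0 in the no-glucose library could not fail it. For these exceptions the direction turned after rescaling, from log2 ratios of 2.27 and 2.08 to -2.12 and -1.52. Complex II and cytochrome c had a value for all 4 listed names, of 11 sought. SDHA led at 135, then SDHB at 34.8 and CYC1, the cytochrome of complex III, at 28.4. Assembly factors outside the prefixes had a value for 20 of 28 listed names, of 43 sought. After LRPPRC came TTC19 of complex III at 217 and ACAD9 of complex I at 181. Carriers and uncoupling proteins had a value for 4 of 5 listed names, of 10 sought. SLC25A3, the phosphate carrier, stood at 274 and VDAC2 at 64.0. Regulators had a value for 7 of 10 listed names, of 17 sought. POLG, the mitochondrial DNA polymerase, stood at 123, POLRMT, the RNA polymerase, at 94.9 and YY1 at 58.5. None of the 13 mitochondrially encoded subunits was among the listed names.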

How the data were processed

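RNA of 2 samples, 1 per condition, was rRNA-depleted and sequenced paired-end, per the labels' protocols. HISAT2 2.0.5, StringTie and build hg38 are named in the submitters' processing notes without their roles; no label or header names the counter, annotation, filters or normalization. The deposited values have no stated unit. Those under 1e-09 were set to 0 and rows without a number were left out. Values rose in steps of 1.264 (no-glucose) and 0.791 (no-glutamine); after small offsets, division by the step gave whole reads within 0.1 for 100% of values up to 1000 reads, 472 and 18536 of them. Above that, rounding is less certain. Values were summed per name; ratios are log2(value + 1), no-glutamine minus no-glucose, and understate differences of low names. The table of the whole series repeats these values.

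Named were all members above 0 in the no-glucose library, the highest and lowest of each complex, isoform pairs, and the leading names of the other lists. Of the members, 1 counts in all totals and is not reported by name or drawn. Members and lists were chosen with earlier results of these data known. Names were matched to RefSeq of GRCh38.p14, all 63 of them, 2 by an older symbol. Recovery of reads and the 2-fold calls were tried on simulated libraries, both drawn from the no-glutamine reads at about equal depth. The 33.7-fold difference in recovered reads of these libraries was not simulated, nor were shares, intervals or motif counts. Python 3.11.15, pandas 2.3.3 and SciPy 1.17.1 were used.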

Additional observations from a re-analysis of the deposited data

Results flagged for a closer look

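Hyphenated names with the same prefixes lay outside the members and yet held reads. COX10-DT, a transcript that starts opposite the gene COX10, stood at 73.5 in the no-glutamine library (93 reads, on 2 of 25 listed rows), although COX10 itself was not among the listed names. ATP5MF-PTCD1, a readthrough of neighbouring genes, stood at 30.8 (39 reads). Both were listed at 0 in the no-glucose library, as were most names.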

How the results depend on the processing

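Of 45 values recomputed under other settings, 38 stayed within 1.5 times the count or within the 95% interval of the main share or median, and 7 moved. Part of the 38 could hardly move. Counts above 0 and 2-fold higher on the no-glutamine side were set by which rows carry a value. They could change only where a setting left out names or raised a threshold, so their staying is no sign of stability. For the medians by complex this order-statistic interval is wide, 3.94 to 94.1 in complex III and 3.15 to 56.1 in complex IV. With a pseudocount of 0.1 the median log2 ratio of the members was 7.90. Without the 10 most abundant names of a library, members held 0.817% of no-glucose and 0.411% of no-glutamine reads. With structural subunits only, the no-glutamine share was 0.187%. In settings added after the data were seen, the no-glucose share was 0.362% without ATP5MG, 0.430% without NDUFA4 and 0.446% without UQCRC2. These settings change the denominator or leave out names by construction. Members at least 2-fold higher numbered 45 to 51 on the no-glutamine and 2 to 4 on the no-glucose side over all settings tried. With the highest row of a name in place of the sum, the median fell from 41.9 to 15.8 in complex III and from 22.1 to 11.1 in complex IV, inside those intervals; a highest row cannot exceed the sum. Reads per coded length were not run, as no protein table was used here. The no-glucose library held few recovered reads on the listed rows, 42827 on 393 names. A row above 0 had a median of 70 reads there and of 17 in the no-glutamine library. Reads outside the listed rows were not seen, so the full sequencing depth is not known. No paired analysis was possible because each condition has 1 library.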
